A study of Rattus norvegicus with 2 samples.

Results

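The 7 genes *Dbi*, *Fabp3*, *Fabp5*, *Fabp7*, *Acsbg1*, *Acsl3* and *Acsl6* encode proteins that carry fatty acids or their coenzyme A esters, or that make those esters. They were taken as a fixed list, chosen with earlier results of these data known, from the 32883 genes of the deposited count tables. Each was found under 1 Ensembl identifier. Their levels were followed over 13 cell types that were gated by marker genes in hypothalamic cells of female rats. Expression was measured by droplet single-cell RNA sequencing, which reads the 3′ end of each transcript and counts molecules by unique molecular identifiers (UMIs).

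The study asked how a neonatal oestrogen implant alters the female rat, and its single-cell experiment compared 1 Control library with 1 SC300 library. Both libraries came from Sprague Dawley females at postnatal day (PND) 29, labelled as 4 weeks old. Each was made from tissue holding the AVPV and ARC areas of the hypothalamus, pooled from 3 rats and dissociated with collagenase. SC300 rats had received a silicone capsule with 300 µg estradiol benzoate at PND 0.5. Control rats are labelled intact, whereas the methods of the study give them a capsule with oil, so the comparison is of the whole SC300 treatment with whichever of these the Control rats had. The design text deposited with the series puts the vehicle capsule under the name SC300, against the sample label EB300 and the methods. SC300 is taken here as the estradiol benzoate group, and the direction of every ratio rests on that. Since the rats of a group were pooled, no spread between animals can be had, no test between conditions was made, and every interval below covers counting error only.

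After removal of barcodes with under 200 detected genes, 4296 of 4488 Control and 4379 of 4524 SC300 barcodes remained. The libraries were of like depth, with medians of 7986 and 8182 UMIs per barcode and median mitochondrial shares of 11.4% and 12.4%. They shared 9 barcode sequences. Gating left 424 Control and 417 SC300 barcodes without a type. Barcodes were gated by their share of UMIs from the markers of each type. A marker was thus largely bound to be highest in its own gate, which is no independent check. All markers were so for neurons, astrocytes, oligodendrocyte precursors, mature oligodendrocytes and microglia. The same held for border-associated macrophages, endothelial and mural cells and haemoglobin-rich barcodes. Ependymal cells had 4 of 5 markers highest in their own gate, and newly formed oligodendrocytes and stromal cells 5 of 6 each. Of the 10 tanycyte markers 8 were, and *Gpr50* and *Adm* were not. The 8 include *Col23a1*, at 0.348 CPM in Control and 0 CPM in SC300 tanycytes. *Rax*, a transcription factor that defines tanycytes, was detected at 5.91 CPM in Control and 7.38 CPM in SC300 tanycytes. Haemoglobin transcripts within mature oligodendrocytes summed to 2445 CPM in Control and 200.2 CPM in SC300. They were also lower in SC300 within astrocytes, tanycytes, ependymal and endothelial cells and the other oligodendrocyte stages. Within neurons they were higher, at 285 and 1088 CPM, and within mural cells too, at 5511 and 12861 CPM. The libraries thus differed in RNA from blood, in a direction that varied with the type.

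Long-chain fatty acids are poorly soluble and travel in cells bound to small fatty acid-binding proteins, of which *Fabp3*, *Fabp5* and *Fabp7* are known from the brain. Acyl-CoA synthetases such as *Acsl3*, *Acsl6* and *Acsbg1* join a fatty acid to coenzyme A, which commits it to membrane lipids, storage or oxidation. The acyl-CoA-binding protein encoded by *Dbi* then holds the ester, and peptides cut from the same protein act on GABA-A receptors. Tanycytes, known for carrying signals and nutrients between the ventricle and the hypothalamus, line the floor and lower walls of the third ventricle.

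The promoter windows of the genes with lower levels in SC300 tanycytes are shown, since each of these genes was called lower there. RefSeq gave a window of 250 bases before to 50 bases after the start for 6 of the 7 genes on build GRCr8. The windows of *Dbi* (chr13:33802569-33802868, minus strand), *Acsl3* (chr9:87563351-87563650, plus strand) and *Acsl6* (chr10:38951911-38952210, plus strand) are printed 5′ to 3′ in the direction of the gene. Capitals mark the GC box GGGCGG and the CCAAT box CCAAT, searched on both strands, which may overlap.
*Dbi*: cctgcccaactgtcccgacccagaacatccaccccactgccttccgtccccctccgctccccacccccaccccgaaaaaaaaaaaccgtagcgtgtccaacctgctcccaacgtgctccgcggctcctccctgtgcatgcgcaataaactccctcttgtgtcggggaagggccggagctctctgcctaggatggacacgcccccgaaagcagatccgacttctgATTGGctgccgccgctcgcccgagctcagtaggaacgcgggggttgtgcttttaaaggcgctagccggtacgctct
*Acsl3*: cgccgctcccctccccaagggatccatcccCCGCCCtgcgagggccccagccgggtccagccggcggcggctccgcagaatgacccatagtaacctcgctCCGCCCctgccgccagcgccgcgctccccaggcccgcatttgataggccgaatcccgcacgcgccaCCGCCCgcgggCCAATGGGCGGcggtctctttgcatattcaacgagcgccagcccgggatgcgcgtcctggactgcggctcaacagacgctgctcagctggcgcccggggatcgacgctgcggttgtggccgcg
*Acsl6*: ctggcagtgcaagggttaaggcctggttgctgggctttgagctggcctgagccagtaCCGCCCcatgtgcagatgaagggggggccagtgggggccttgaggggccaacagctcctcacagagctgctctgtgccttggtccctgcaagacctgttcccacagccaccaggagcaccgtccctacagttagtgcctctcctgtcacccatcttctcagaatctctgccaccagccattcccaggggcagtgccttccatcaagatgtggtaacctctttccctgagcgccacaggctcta
The *Dbi* window held 1 CCAAT box and no GC box. The *Acsl3* window held 4 GC boxes and 1 CCAAT box, and that of *Acsl6* held 1 GC box. Of all 33469 windows, 33.1% held a GC box and 37.5% a CCAAT box. The full palindromic oestrogen response element, the PPAR response element of direct repeats and the sterol regulatory element TCACNCCAC had no match in the 6 windows, against 0.0269%, 0.0538% and 1.12% of all windows. No match says only that these letters are not in the window.

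*Dbi*, the acyl-CoA-binding protein, was carried by the lining cells of the ventricle, by astrocytes and by the whole oligodendrocyte lineage. In Control, its level was 7573 CPM (UMIs of the gene scaled by all UMIs of the type, 95% Poisson interval 7473 to 7674) in tanycytes. Oligodendrocyte precursors had 4140 CPM, astrocytes 3681 CPM and ependymal cells 3638 CPM, and the intervals of the last pair overlapped. Newly formed oligodendrocytes, at 2255 CPM, and mature oligodendrocytes, at 1998 CPM, came next. All other types lay far lower, from 362 CPM in endothelial cells to 194 CPM in neurons, 164 CPM in microglia and 126 CPM in haemoglobin-rich barcodes. The Control level of tanycytes was 46.1-fold that of microglia (interval 42.3 to 50.2) and 2.06-fold that of astrocytes (2.02 to 2.09).

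In SC300 the order was another. Oligodendrocyte precursors led at 3725 CPM, followed by astrocytes at 3374 CPM, tanycytes at 2880 CPM and ependymal cells at 2735 CPM. Tanycytes thus stood at 0.854-fold the level of astrocytes (interval 0.832 to 0.876), and their interval overlapped that of ependymal cells.

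*Dbi* was present in nearly every barcode of these types. All 237 Control and 144 SC300 tanycytes had a UMI, as did 97.3% of Control and 99.3% of SC300 astrocytes. The haemoglobin-rich barcodes, which hold red cell RNA, had a UMI in 34.0% of Control (exact binomial interval 24.6 to 44.5) and 52.1% of SC300 barcodes. After thinning each barcode to 2000 UMIs these shares were 11.7% and 11.0%, and those of tanycytes 100% and 98.6%.

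The ependymal cells had *Dbi* in every Control barcode and in 98.5% of SC300 barcodes. Neurons reached 75.4% and 76.6% at median depths of 23551 and 22202 UMIs, but after thinning the Control share was 23.5%. Microglia had 26.1% and 30.6% after thinning.

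**Figure D1:**
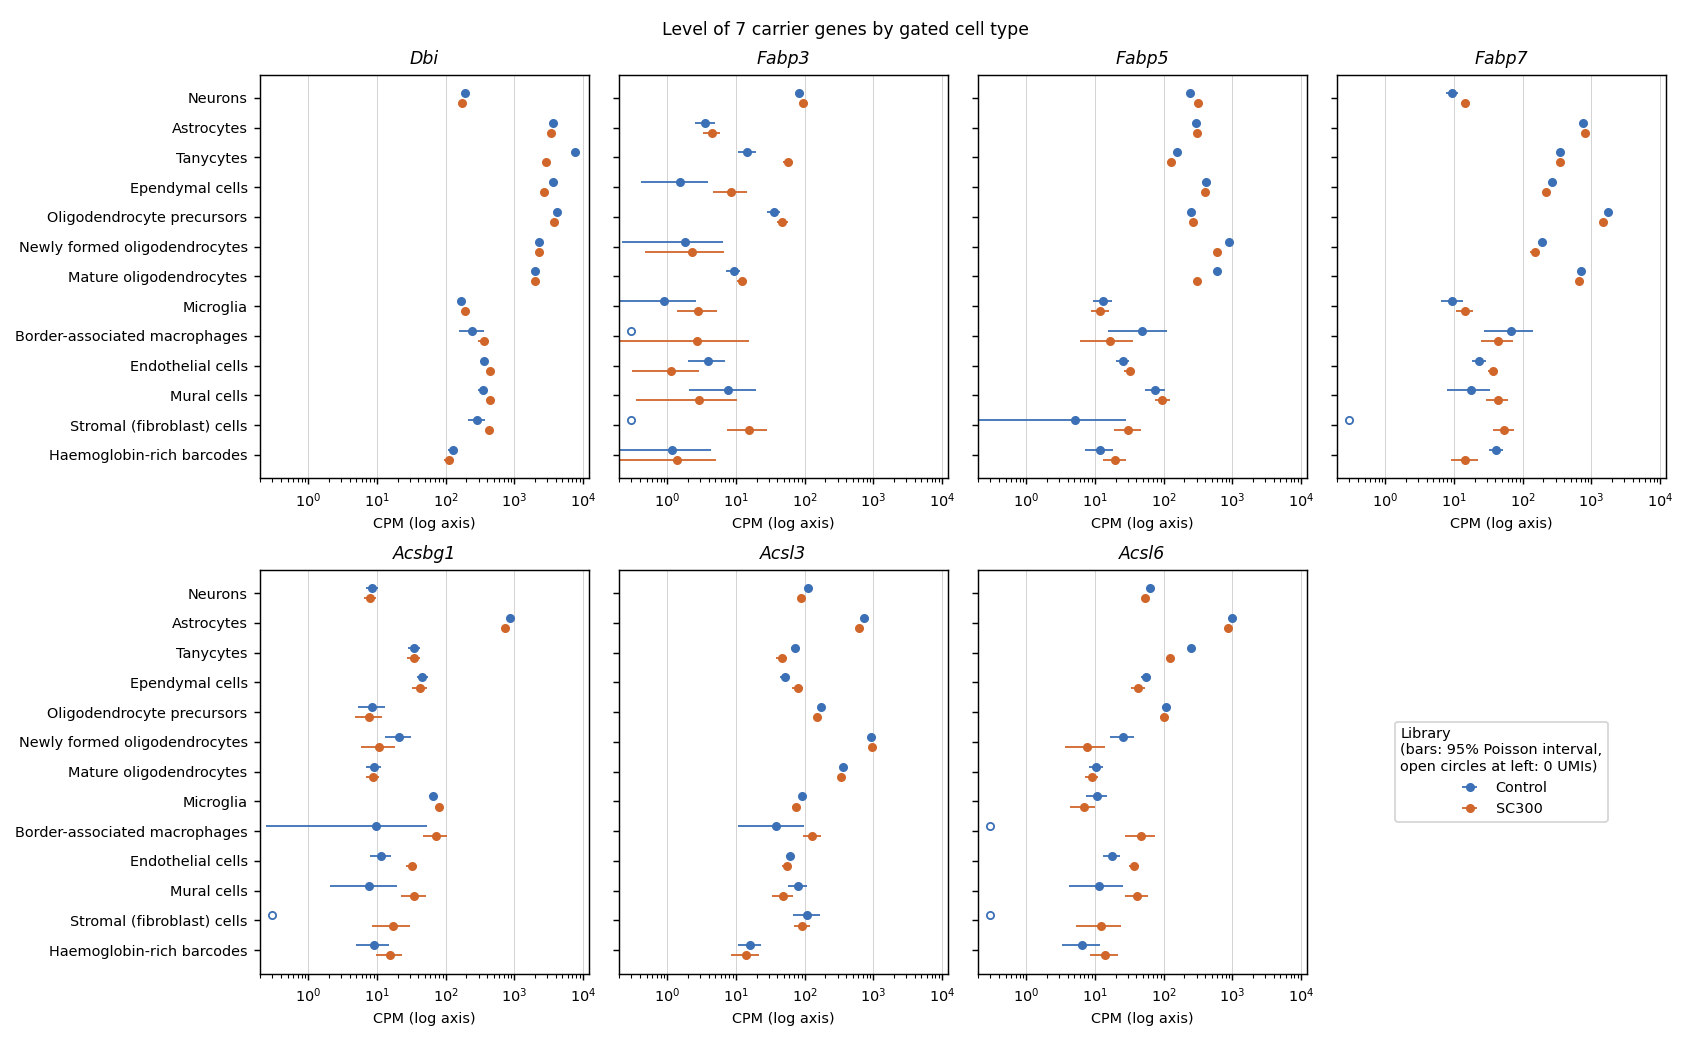
Level of each of the 7 genes, in CPM on a log axis, in 13 gated cell types of the Control (blue) and SC300 (orange) library, with 95% Poisson intervals and open circles at the left edge where a library had 0 UMIs. The libraries lie close in most rows, and *Dbi* in tanycytes, at 7573 against 2880 CPM, is the widest gap among the high levels.

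The fatty acid-binding protein genes differed in the cell type where each was highest, and overlapped in several types. *Fabp7*, the brain form known from radial glia and astrocytes, was highest in oligodendrocyte precursors, at 1735 CPM in Control and 1476 CPM in SC300. Astrocytes had 758 and 810 CPM and mature oligodendrocytes 699 and 648 CPM. Tanycytes had 344 and 346 CPM, ependymal cells 268 and 219 CPM, and newly formed oligodendrocytes 192 and 149 CPM.

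Neurons and microglia had little *Fabp7*. The neuronal level was 9.34 CPM in Control and 14.6 CPM in SC300, and 10.3% and 13.8% of neurons had a UMI, against 6.1% and 6.0% of microglia at lower depth. Astrocytes had 81.1-fold the neuronal level in Control (interval 67.3 to 98.7) and 55.4-fold in SC300 (47.9 to 64.5).

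*Fabp5*, the epidermal form found in many tissues, was spread more widely. On summed counts its highest level was in newly formed oligodendrocytes, with 888 CPM in Control and 589 CPM in SC300. The median barcode there had only 84.0 CPM in Control and 143 CPM in SC300. Ependymal cells had the highest median barcode in both libraries, at 310 and 312 CPM. Mature oligodendrocytes had 601 and 302 CPM, and ependymal cells 418 and 405 CPM. It was also found in neurons, where it reached 241 and 317 CPM, next to 291 and 307 CPM in astrocytes. Microglia had 44 and 42 UMIs in all, or 11.9 CPM in SC300, so neurons exceeded them 18.6-fold in Control and 26.6-fold in SC300.

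*Fabp3*, the heart form, was highest in neurons, though below the *Fabp5* level there. Neurons had 83.3 CPM in Control and 94.5 CPM in SC300. In Control, oligodendrocyte precursors followed with 35.8 CPM. In SC300 tanycytes, at 57.4 CPM, and precursors, at 47.3 CPM, came next with overlapping intervals. Neurons stood 23.3-fold above astrocytes in Control (interval 16.7 to 33.4) and 21.2-fold in SC300 (15.9 to 28.8). A UMI was present in 57.8% and 57.2% of neurons and in 2.5% and 3.0% of astrocytes. Control border-associated macrophages and stromal cells had 0 UMIs in 14 and 12 barcodes, so a level under that of 3 UMIs, for stromal cells 15.4 CPM, could not be seen. Neurons held 76.7% of all *Fabp3* UMIs of the Control library and 69.7% of those of SC300.

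The make-up of the *Fabp3*, *Fabp5* and *Fabp7* UMIs of a type shows how these genes were shared within it. The counts are of 3′ ends, which do not grow with transcript length, and differences in capture between genes were not corrected. *Fabp7* made up 72.0% of these UMIs in Control astrocytes and 86.0% in Control oligodendrocyte precursors. *Fabp5* made up 82.1% in Control newly formed oligodendrocytes and 60.8% in Control ependymal cells. In Control neurons *Fabp5* took 72.3% and *Fabp3* 24.9%. In mature oligodendrocytes *Fabp5* had 45.9% in Control (interval 45.0 to 46.9) and 31.4% in SC300 (30.5 to 32.3).

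Among the synthetase genes, *Acsbg1*, the bubblegum family member, was nearly a gene of astrocytes alone. Astrocytes had 848 CPM in Control and 740 CPM in SC300, and held 89.1% and 87.5% of all its UMIs. Microglia came next with 64.5 and 79.8 CPM, 7.67-fold and 10.2-fold the level in neurons. A UMI was present in 92.2% and 94.1% of astrocytes, 32.8% and 44.5% of microglia and 6.1% and 9.6% of neurons, although neurons were the deepest of these types. Tanycytes had 34.8 and 34.0 CPM, so astrocytes exceeded them 24.4-fold and 21.7-fold.

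*Acsl6*, a synthetase known for its use of docosahexaenoic acid in brain, was also highest in astrocytes. Its level there was 971 CPM in Control and 872 CPM in SC300, and astrocytes held 79.8% and 83.2% of its UMIs. Tanycytes were next with 246 CPM in Control and 122 CPM in SC300, then oligodendrocyte precursors with 108 CPM in Control, and the SC300 intervals of the last pair overlapped. Neurons had 62.7 and 53.3 CPM, 6.05-fold and 5.97-fold the 10.4 and 8.93 CPM of mature oligodendrocytes.

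*Acsl3*, a synthetase of the endoplasmic reticulum and lipid droplets, had another pattern. Newly formed oligodendrocytes led on summed counts with 925 CPM in Control and 955 CPM in SC300, and astrocytes followed with 727 and 609 CPM. The median barcode was lower in newly formed oligodendrocytes, at 605 and 480 CPM, than in astrocytes, at 683 and 588 CPM. With each barcode weighted alike the Control levels were 735 CPM in newly formed oligodendrocytes and 773 CPM in astrocytes, and the SC300 levels 773 and 645 CPM. Mature oligodendrocytes had 364 and 342 CPM and precursors 172 and 150 CPM. Tanycytes had only 72.0 and 46.3 CPM, so astrocytes had 10.1-fold and 13.2-fold their level.

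Followed along the oligodendrocyte lineage, the genes took different courses. Newly formed oligodendrocytes had 5.39-fold the *Acsl3* level of precursors in Control (interval 4.80 to 6.06) and 6.36-fold in SC300 (5.67 to 7.14), and 2.54-fold and 2.79-fold that of mature cells. *Fabp5* was likewise highest at that stage on summed counts, at 3.60-fold and 2.20-fold the level of precursors. Its median barcode was not, with 84.0 CPM in Control newly formed cells against 177 CPM in precursors and 287 CPM in mature cells. In SC300 these medians were 143, 209 and 164 CPM. *Fabp7* was lowest at that stage on summed counts, with precursors at 9.02-fold and 9.90-fold the level of newly formed cells. Mature cells had 3.63-fold and 4.34-fold that level. *Dbi* was lower from stage to stage, and precursors had 2.07-fold and 1.87-fold the level of mature cells. *Acsl6* was at 108 CPM in Control precursors and at 10.4 CPM in Control mature cells.

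**Figure D2:**
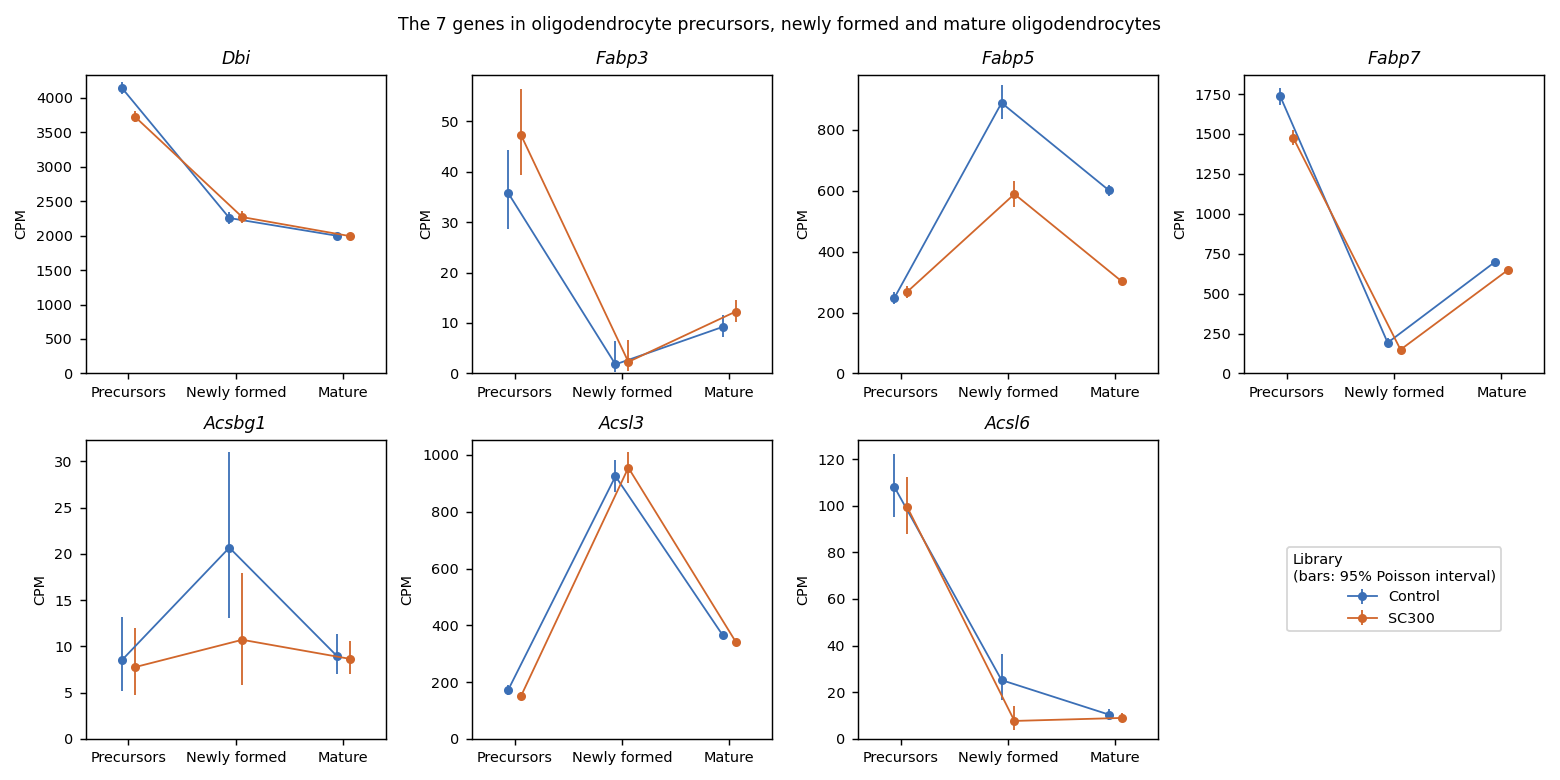
Level of the 7 genes, in CPM from 0, in oligodendrocyte precursors, newly formed oligodendrocytes and mature oligodendrocytes of the Control (blue) and SC300 (orange) library, with 95% Poisson intervals. On summed counts, *Acsl3* and *Fabp5* peak and *Fabp7* dips in newly formed cells in both libraries. The libraries part for *Fabp5* in newly formed and mature cells. Their intervals also lie apart for *Dbi* in precursors, *Fabp7* in precursors and mature cells, and *Acsl6*, on few UMIs, in newly formed cells.

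The SC300 over Control ratio was computed in the 11 types with at least 20 barcodes in each library, for genes with at least 50 UMIs in both libraries together. A ratio was called where it was over 1.5-fold and its interval, an exact binomial one of counting error, excluded 0 on the log2 scale. Of 77 pairs of gene and type, 61 had enough UMIs, 7 were called lower and 6 higher in SC300, 24 had an interval that excluded 0 but were within 1.5-fold, and 24 had an interval that held 0. By the same rule, 5.99% of the genes tested in tanycytes were called lower and 4.4% higher. Over the 11 types, the share called lower ran from 1.64% in oligodendrocyte precursors to 5.99% in tanycytes. The share called higher ran from 1.28% in precursors to 17.2% in haemoglobin-rich barcodes. The share of all genes whose interval excluded 0 is not given, so such counts do not set the members apart from other genes.

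Tanycytes held 4 of the called ratios. *Dbi* had 21774 UMIs in Control and 7022 in SC300, and its level of 2880 against 7573 CPM gave a log2 ratio of -1.39 (interval -1.43 to -1.36). In tanycytes, 0.97% of the 7815 genes tested had a lower ratio. *Acsl6* was at 246 and 122 CPM, with a log2 ratio of -1.01 (-1.21 to -0.82), and 2.00% of genes had a lower ratio. *Acsl3* was at 72.0 and 46.3 CPM, with a log2 ratio of -0.64 (-0.98 to -0.30), and 6.04% of genes had a lower ratio. With each barcode weighted alike the *Acsl3* ratio was -0.51, within 1.5-fold. So 3 of the 7 genes were called lower, an acyl-CoA carrier and both of the *Acsl* synthetases of the list. The list was chosen with earlier results of these data known, so this count cannot be weighed against the share over all genes.

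*Fabp3* was the one member called higher in tanycytes. It had 42 UMIs in Control and 140 in SC300, or 14.6 and 57.4 CPM, a log2 ratio of 1.97 (1.47 to 2.51). A UMI was present in 7.6% of Control tanycytes (interval 4.6 to 11.7) and in 40.3% of SC300 tanycytes (32.2 to 48.8), against 2.5% and 3.0% of astrocytes. The 3 barcodes with most UMIs carried 59.5% of the Control count and 23.6% of the SC300 count. *Fabp7*, at 344 and 346 CPM, had a log2 ratio of 0.01 (-0.13 to 0.14) and *Acsbg1*, at 34.8 and 34.0 CPM, one of -0.03 (-0.47 to 0.40). *Fabp5* was at 154 and 127 CPM, with a log2 ratio of -0.29 (-0.50 to -0.07) that was not called and that differed in direction between subsets.

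**Figure D3:**
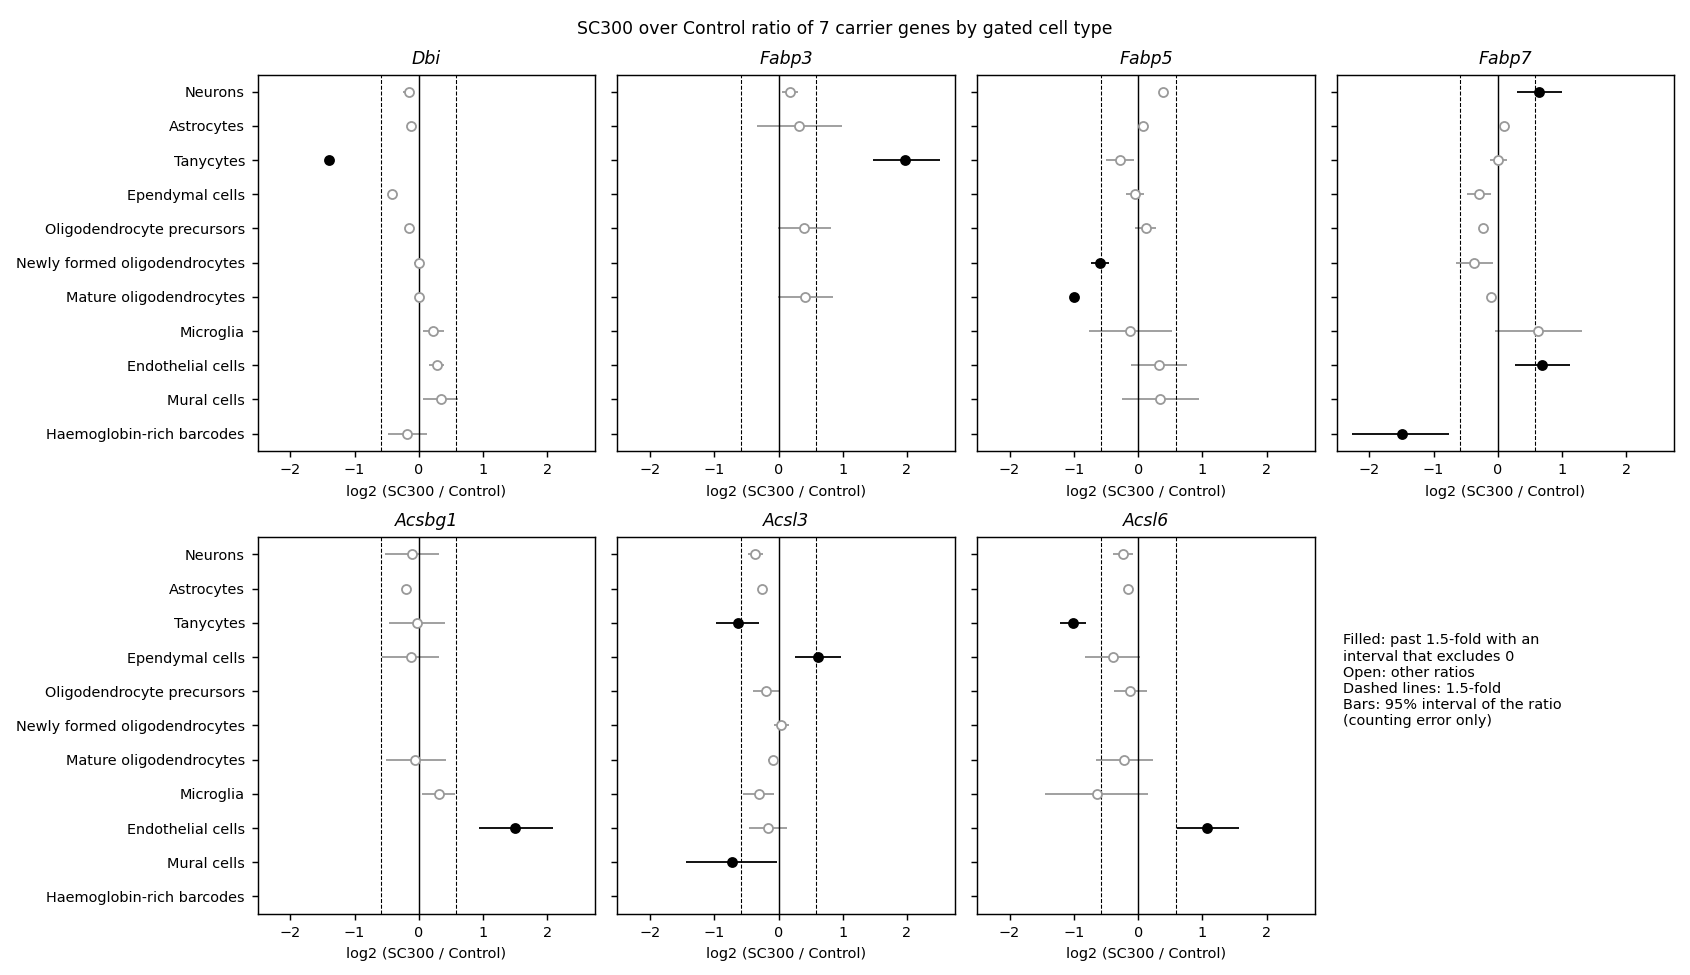
log2 ratio of SC300 over Control for each of the 7 genes in 11 cell types, with 95% intervals of counting error, a solid line at 0 and dashed lines at 1.5-fold. Filled points are the 13 called ratios, and 4 of them, for *Dbi*, *Acsl3*, *Acsl6* and *Fabp3*, lie in the row of tanycytes.

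Single tanycytes showed the difference in *Dbi* over their whole range. The median Control tanycyte had 7380 CPM, with a span from the 5th to the 95th percentile of 3331 to 12196 CPM, and the median SC300 tanycyte had 2828 CPM, with a span of 1133 to 6259 CPM. Of the 237 Control tanycytes 229 were above the SC300 median, and of the 144 SC300 tanycytes 3 were above the Control median. In astrocytes the median barcodes had 2428 and 2497 CPM.

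The lower *Dbi* level was found in each subset of tanycytes with at least 20 barcodes in both libraries. In tanycytes with a UMI of *Scn7a*, *Col25a1* or *Adm*, taken as markers of the median eminence, it was 7447 CPM in 48 Control barcodes and 3481 CPM in 39 SC300 barcodes, a log2 ratio of -1.10 (-1.17 to -1.03). In those without, it was 7613 and 2626 CPM, with a log2 ratio of -1.54 (-1.58 to -1.49). These markers were low in tanycytes. *Scn7a* was at 10.8 CPM in Control and 22.1 CPM in SC300, *Col25a1* at 10.1 and 8.20 CPM and *Adm* at 4.52 and 2.87 CPM. A barcode without a UMI of them may thus still be of the median eminence. Where tanycyte markers made up over 75% of the tanycyte and ependymal marker UMIs, the log2 ratio was -1.10, and where they made up 50 to 75% and 10 to 50% it was -1.71 and -1.53. Among tanycytes with a mitochondrial share of 10 to 15% it was -1.41, and above 15% it was -1.39.

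*Acsl6* was lower in the same subsets, with log2 ratios of -0.77 (-1.09 to -0.46) in tanycytes with a median eminence marker and levels of 222 CPM in Control and 93.3 CPM in SC300 in those without. The *Acsl3* intervals held 0 in tanycytes with a median eminence marker (log2 ratio -0.42), where tanycyte markers made up over 75% (-0.28), and above a mitochondrial share of 15% (-0.23).

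*Fabp3* had different ratios in tanycytes with and without a UMI of a median eminence marker. With a median eminence marker its level was 36.2 CPM in Control and 34.5 CPM in SC300, and without one it was 7.78 and 67.1 CPM. The log2 ratios were -0.07 (-0.93 to 0.79) and 3.11 (2.37 to 3.94), so their intervals did not overlap. All 25 Control UMIs with a median eminence marker came from 3 of the 48 barcodes, whereas 8 of the 39 SC300 barcodes had a UMI, so the flat ratio there rests on 3 Control barcodes. The share of barcodes with a UMI was higher in SC300 in both subsets, with 6.25% and 20.5% with a marker and 7.94% and 47.6% without.

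**Figure D4:**
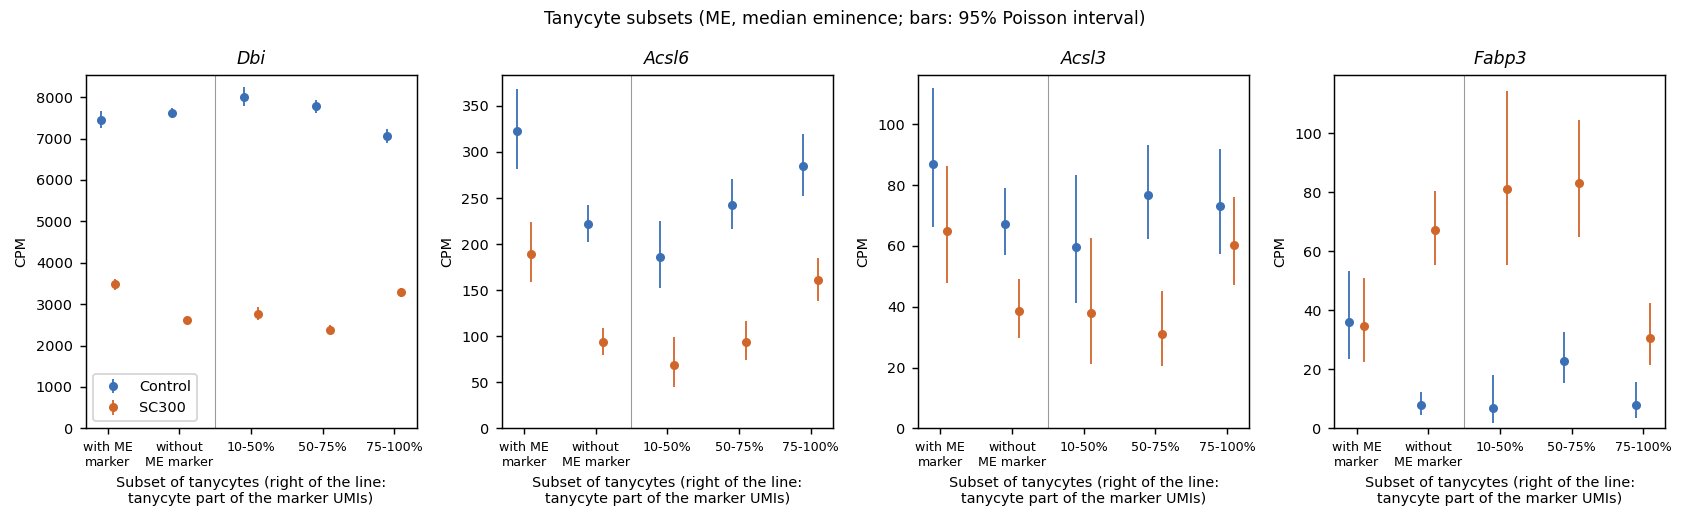
Level of *Dbi*, *Acsl6*, *Acsl3* and *Fabp3*, in CPM from 0, in subsets of Control (blue) and SC300 (orange) tanycytes, split by median eminence (ME) markers and, right of the line, by the percent of tanycyte and ependymal marker UMIs that came from tanycyte markers. Bars are 95% Poisson intervals, and *Dbi* and *Acsl6* are lower in SC300 in all 5 subsets.

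Some markers also moved in the tanycyte gate. *Crym* was at 2932 CPM in Control and 3942 CPM in SC300, and *Frzb* at 338 and 223 CPM. Ependymal markers summed to 1572 and 1435 CPM and astrocyte markers to 477 and 577 CPM. Tanycytes were 5.52% of Control and 3.29% of SC300 barcodes, and their median depths were 10634 and 11617 UMIs. The part of these differences in the ratios was not tested.

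In mature oligodendrocytes *Fabp5* was the one member called. It had 4754 UMIs in Control and 3179 in SC300, or 601 and 302 CPM, a log2 ratio of -0.99 (-1.06 to -0.93). In this type 2.37% of genes were called lower and 1.89% higher, and 0.84% of the 8610 genes tested had a lower ratio than *Fabp5*. The median barcode had 287 CPM in Control and 164 CPM in SC300, and a UMI was present in 91.0% and 86.5% of barcodes. The other members with enough UMIs were within 1.5-fold, and *Dbi*, at 1998 and 1993 CPM, had a log2 ratio of 0.00 with an interval of -0.03 to 0.03.

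In newly formed oligodendrocytes the same gene was called lower, although the median barcode went the other way. *Fabp5* was at 888 and 589 CPM, a log2 ratio of -0.59 (-0.73 to -0.46), where 3.75% of genes were called lower and 2.38% higher. The 3 barcodes with most UMIs carried 31.9% of the Control and 22.6% of the SC300 count, and a larger share of SC300 barcodes, 64.7% against 54.8%, had a UMI. The median barcode was also higher in SC300, at 143 CPM against 84.0 CPM in Control. The ratio was within 1.5-fold under 9 of 12 alternatives and smallest, at -0.34, with a stricter gate margin. It was largest, at -0.64, with each barcode weighted alike. Markers moved in this gate too, with *Bmp4* at 1698 CPM in Control and 730 CPM in SC300 and *Enpp6* at 1356 and 1801 CPM. Mature oligodendrocyte markers summed to 5562 and 7168 CPM there, and astrocyte markers to 399 and 154 CPM. The part of these in the ratio was not tested. In precursors *Fabp5* was at 247 and 268 CPM, a log2 ratio of 0.12 (-0.05 to 0.28). In neurons it was higher in SC300 without being called, at 241 and 317 CPM, a log2 ratio of 0.39 (0.32 to 0.46), and this held in GABAergic neurons, with 252 and 327 CPM, and in glutamatergic neurons, with 212 and 260 CPM.

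**Figure D5:**
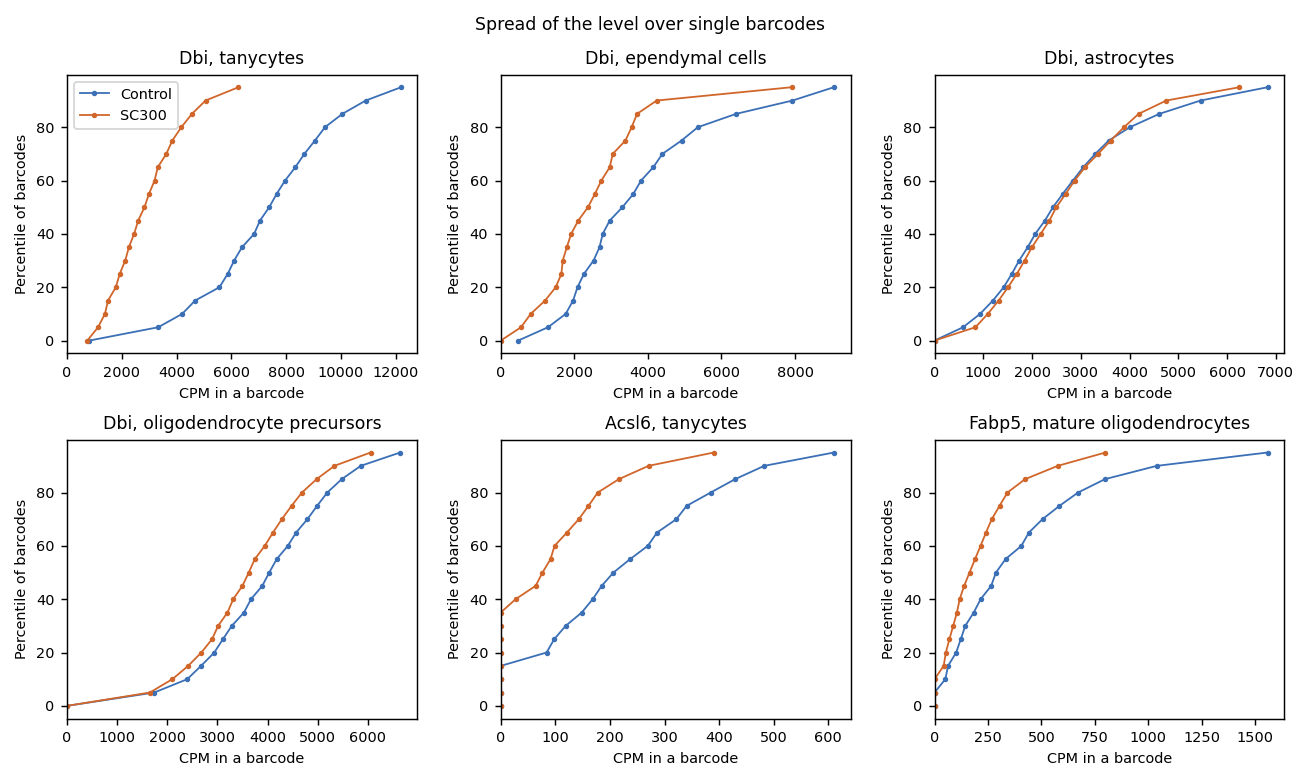
Percentiles of single barcodes against the level in a barcode, in CPM, for *Dbi* in 4 cell types, *Acsl6* in tanycytes and *Fabp5* in mature oligodendrocytes of the Control (blue) and SC300 (orange) library, up to the 95th percentile. The *Dbi* curves stand apart in tanycytes, with medians of 7380 and 2828 CPM, and nearly coincide in astrocytes.

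Astrocytes, with 1255 and 1379 barcodes, had no called ratio for any of the 7 genes, where 2.01% of all genes were called lower and 2.43% higher. Of their intervals 6 excluded 0, a count given without the share over all genes. The log2 ratios ran from -0.26 for *Acsl3* (-0.30 to -0.21) to 0.32 for *Fabp3* (-0.33 to 0.98). All 3 synthetase genes had intervals below 0, with -0.20 for *Acsbg1* and -0.16 for *Acsl6*. Of the 10253 genes tested in astrocytes, 12.7% had a lower ratio than *Acsl3*, 17.8% than *Acsbg1* and 22.6% than *Acsl6*. Oligodendrocyte precursors, where 1.64% of genes were called lower and 1.28% higher, and microglia, where 3.23% were called lower and 1.61% higher, had no called ratio either. In ependymal cells *Dbi* was at 3638 and 2735 CPM, a log2 ratio of -0.41 (-0.46 to -0.36) that was not called. *Acsl3* was called higher there, with 134 and 130 UMIs, or 51.4 and 78.8 CPM, a log2 ratio of 0.62 (0.26 to 0.98), where 4.15% of genes were called lower and 2.29% higher. A UMI was present in 62.7% and 60.6% of barcodes, and 32.3% of the SC300 count lay in 3 barcodes. With each barcode weighted alike the log2 ratio was 0.04, and it was within 1.5-fold under 4 of 11 alternatives. Mature oligodendrocyte markers in the ependymal gate summed to 75.2 CPM in Control and 258 CPM in SC300. Astrocyte markers there summed to 758 and 965 CPM, and tanycyte markers to 73.7 and 44.3 CPM. The part of these in the ratio was not tested.

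Further called ratios lay in types where the genes were low. In neurons *Fabp7*, at 9.34 and 14.6 CPM, was called higher with a log2 ratio of 0.65 (0.30 to 1.00). There 2.31% of genes were called lower and 2.95% higher. With a stricter gate margin the ratio was 0.13, and it was within 1.5-fold under 4 of 11 alternatives. Astrocyte markers in the neuronal gate summed to 145 CPM in Control and 90.2 CPM in SC300. Mature oligodendrocyte markers summed to 44.7 and 154 CPM, tanycyte markers to 45.0 and 66.2 CPM, and precursor markers to 18.1 and 23.4 CPM. The part of these in the ratio was not tested. In endothelial cells *Acsbg1*, *Acsl6* and *Fabp7* were called higher, with log2 ratios of 1.49, 1.08 and 0.69, where 2.37% of genes were called lower and 4.16% higher. Their SC300 levels of 32.0, 37.1 and 37.4 CPM were small beside those of astrocytes. Astrocyte markers in the endothelial gate summed to 166 CPM in Control and 372 CPM in SC300, and the part of these in the result was not tested. With cell types from clusters the log2 ratios were -0.11, -0.04 and -0.18, so the direction did not hold.

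In mural cells *Acsl3* was called lower on 41 and 33 UMIs, with a log2 ratio of -0.73 (-1.44 to -0.03), where 3.85% of genes were called lower and 3.6% higher. With each barcode weighted alike it was -0.09. In haemoglobin-rich barcodes *Fabp7* was called lower on 69 and 21 UMIs, with a log2 ratio of -1.49 (-2.27 to -0.77), where 4.06% of genes were called lower and 17.2% higher. The 3 barcodes with most UMIs carried 92.8% and 71.4% of these counts, and with each barcode weighted alike the log2 ratio was 0.38. Mature oligodendrocyte markers in this gate summed to 364 CPM in Control and 23.0 CPM in SC300. Precursor markers summed to 39.8 and 27.8 CPM, and astrocyte markers, the other way, to 120 and 143 CPM. The part of these in the *Fabp7* ratio was not tested.

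The other genes of fatty acid handling give the setting of these ratios. The wider list had 73 genes in the files, from further binding proteins and synthetases to uptake, oxidation, peroxisomal and synthesis genes. In tanycytes 45 had enough UMIs, of which 5 were called lower and 1 higher, or 11.1% and 2.22%, where 5.99% of all genes were called lower and 4.4% higher. Their median log2 ratio was -0.19, against -0.03 for all genes tested.

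Genes called lower in tanycytes belonged to several steps. *Scd2*, a stearoyl-CoA desaturase, was at 823 and 488 CPM, a log2 ratio of -0.75. *Fads1*, a delta-5 desaturase, had -0.62. *Acsf2* and *Acbd5* were called on 56 and 83 UMIs, with -1.08 and -0.89. *Hadh*, a dehydrogenase of mitochondrial oxidation, was higher, at 19.8 and 64.4 CPM, a log2 ratio of 1.70.

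In astrocytes 58 genes of the list had enough UMIs, of which 4 were called lower and 2 higher, or 6.90% and 3.45%, where 2.01% of all genes were called lower and 2.43% higher. The lower ones were *Slc27a3* with a log2 ratio of -1.10, *Scd* with -0.74, *Acss2* with -0.69 and *Mfsd2a*, a carrier of lysophospholipids, with -0.65. *Acaa2*, a thiolase of mitochondrial oxidation, was at 58.3 and 109 CPM, a log2 ratio of 0.90, and *Fabp4* at 9.54 and 18.0 CPM, one of 0.92. *Acaa2* was called higher in 7 of the 11 types, with the smallest log2 ratio, 0.81, in endothelial cells and the largest in mature oligodendrocytes, at 7.97 and 18.9 CPM. Haemoglobin-rich barcodes were among these types, and 17.2% of all genes were called higher there. The share of all genes called higher in as many types is not given, so this count does not set *Acaa2* apart from other genes.

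In ependymal cells 3 genes of the list were called lower and 0 higher among 40 with enough UMIs, or 7.5% lower where 4.15% of all genes were, and *Fads1* and *Acot1* were among them with log2 ratios of -1.91 and -0.60. Neurons had 2 lower, *Etfb* with -0.97 and *Acbd7* with -0.89, and 4 higher, among 54, or 3.70% and 7.41%, where 2.31% and 2.95% of all genes were called. The higher ones were *Mfsd2a*, *Tspo*, *Acaa2* and *Fads3*, with 1.00, 1.00, 0.92 and 0.75. Endothelial markers in the neuronal gate summed to 9.09 CPM in Control and 26.0 CPM in SC300, and astrocyte markers to 145 and 90.2 CPM. The part of these in the neuronal ratios was not tested. Mature oligodendrocytes had 3 lower, *Elovl7*, *Elovl5* and *Pmp2*, with -1.55, -1.04 and -0.88, and *Acaa2* higher, among 50, where 2.37% of all genes were called lower and 1.89% higher. In endothelial cells *Acot7* and *Scd2* were called higher beside *Acaa2*, with 0.63 and 0.71, among 42, where 4.16% of all genes were called higher.

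Microglia had 2 genes called lower and 2 higher among 39, or 5.13% each way, where 3.23% of all genes were called lower and 1.61% higher. *Fads1* was among the lower ones with -1.18, and *Acaa2* and *Etfdh* were higher with 1.23 and 0.86. Oligodendrocyte precursors had *Scd* lower, with -0.87, and *Acaa2* higher, with 0.83, among 42, where 1.64% of all genes were called lower and 1.28% higher. Newly formed oligodendrocytes had *Acot1* higher, with 0.72, among 32, where 2.38% of all genes were called higher.

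Mural cells had 2 genes called lower, *Acsl1* and *Acadm* with -0.66 each, and 1 higher, among 24, or 8.33% and 4.17%, where 3.85% of all genes were called lower and 3.6% higher. Haemoglobin-rich barcodes had 1 lower, *Elovl1* with -1.04, and 7 higher among 17, or 5.88% and 41.2%, where 4.06% of all genes were called lower and 17.2% higher. Of the 7 higher genes 6 belonged to mitochondrial entry and oxidation, among them *Acaa2* with 1.07, and the other was *Acot7* with 1.64. The median log2 ratio of all genes tested in these barcodes was itself above 0, at 0.29, and that of the list was 0.44. These calls are set against 0 and not against that median.

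The genes whose levels over the 26 points of type and library were most like those of each member were named by Pearson's r of log2(CPM + 10), among 7282 genes that reached 50 CPM. The points share libraries and gates, so r is a description. For *Dbi* they were *Psph* (0.93), *Ramp1* (0.91) and *Phgdh* (0.91), and *Psph* and *Phgdh* are enzymes of serine synthesis. For *Acsl3* they included *Insig1* (0.95) and *Cyp51* (0.91), both known from cholesterol synthesis and its control. For *Acsl6* they were *Gdpd2* (0.95), *Aldoc* (0.95) and *Adcy2* (0.94).

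*Acsbg1* was nearest to *Pnpla7* (0.90), *Ephb3* (0.90) and *Aqp9* (0.90), *Fabp7* to *Ramp1* (0.90), *Dbi* (0.90) and *Itgb8* (0.88), *Fabp5* to *Kif1b* (0.93), *Scrn1* (0.93) and *Fam102a* (0.92), and *Fabp3* to *Tac1* (0.92), *Slc3a1* (0.89) and *Cadm3* (0.89). Within the list, the pair most alike was *Dbi* and *Fabp7* with 0.90, and *Dbi* and *Fabp5* with 0.73 came next. *Fabp3* and *Acsbg1* had the lowest r, -0.25.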

How the data were processed

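The deposited counts are whole UMI counts per gene and barcode, which the authors made with Cell Ranger (3.0.1 in the submitters' processing notes) on an Ensembl transcriptome, 1 matrix per library. No per-sample column was left unused. Barcodes needed at least 200 detected genes. Each barcode was scored on 13 marker lists by the square root of a list's share of its UMIs over a high percentile of that share over all barcodes, and gated with a score of at least 0.3, a margin of 0.1 and 2 markers seen. Tanycytes and ependymal cells were parted at 10% tanycyte marker UMIs. Doublet calls (70 Control, 71 SC300 barcodes) were kept and left out as an alternative. UMIs were summed by type and library and scaled to CPM. With 1 library per group no test was made. Poisson, Clopper-Pearson and conditional binomial 95% intervals cover counting error only, and a count of 0 allows 3 UMIs. The interval and call were tested on simulated data with Poisson counting error only, which is the error the intervals assume. The simulated counts held no clumping of UMIs in few barcodes, so the intervals were not tested for that. Thinning to 2000 UMIs left out shallower barcodes, from 0 to 119 per type and library. Python 3.11.15, numpy 2.4.6, scipy 1.17.1 and scanpy 1.11.5 were used. The members, lists, gates and limits were chosen with earlier results of these data known. Named genes were the 7 members, the called genes of the wider list by size, and the 3 most similar to each member. Some genes that this rule names are not reported here.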

Additional observations from a re-analysis of the deposited data

How the results depend on the processing

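No paired analysis was possible because each group has 1 library and no result comes from a test. All 7 genes had the same highest type, by the mean of both libraries, under the 12 alternatives run on levels. This did not always hold in a single library. In SC300 *Dbi* was highest in oligodendrocyte precursors, at 3725 CPM against 2880 CPM in tanycytes. With each barcode weighted alike, Control *Acsl3* was higher in astrocytes (773 CPM) than in newly formed oligodendrocytes (735 CPM). The count of called ratios, 7 lower and 6 higher, became 11 lower with cell types from clusters, 0 higher when thinned to 2000 UMIs, where fewer ratios reached 50 UMIs, and 3 lower and 3 higher over 2-fold. The other settings gave 5 to 10 lower and 5 to 9 higher. Among the called ratios, the direction was the other way for *Fabp7*, *Acsbg1* and *Acsl6* in endothelial cells with clusters (-0.18, -0.11 and -0.039). It was also the other way for *Fabp7* in haemoglobin-rich barcodes with each barcode weighted alike (0.38). Some uncalled ratios whose interval excluded 0 changed sign too. Examples are *Dbi* in neurons with each barcode weighted alike (0.17) and *Fabp5* in tanycytes thinned to 2000 UMIs (0.19). *Dbi* in tanycytes ran from -1.44 to -1.28, *Acsl6* from -1.16 to -0.98, *Acsl3* from -0.88 to -0.51 and *Fabp3* from 1.16 to 3.05, and *Fabp5* in mature oligodendrocytes from -1.03 to -0.91. In the wider list, tanycytes had 9 lower and 4 higher at a smaller fold limit, 1 lower over 2-fold, 2 higher with at least 20 UMIs and 3 lower with at least 100 UMIs, and astrocytes had 12 lower at the smaller fold limit and 1 lower and 0 higher over 2-fold. Thinned to 2000 UMIs, 29 in place of 75 values of the share of barcodes were at least 50%. Of the 21 most similar genes, 12 were shared in the Control library alone, 8 in the SC300 library alone and 7 with Spearman's rank correlation. Clusters gave no mural cells. A tanycyte and ependymal boundary at 30%, chosen after seeing the data, gave 7 lower and 5 higher. The cause of these shifts was not tested. The intervals hold no difference between animals.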
